A study of Mus musculus with 12 samples.

Results

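The 10 genes described here encode costimulatory ligands and receptors of antigen-presenting B cells (Cd80, Cd86, Cd40 and Cd83) and surface receptors of the SLAM family (Slamf1, Slamf6, Slamf7, Cd84, Ly9 and Cd48). They were taken by name, with earlier results of these data known, out of 26305 genes with an identifier. Of the 10, 6 had enough reads to be tested and 4 (Cd80, Cd40, Cd83 and Slamf1) did not. Messenger RNA was sequenced from EMRK1184luc, a single B cell lymphoma line of a female Eµ-Myc mouse, in which an immunoglobulin heavy chain enhancer drives Myc in the B lineage. The cells received WM-1119 at 5 µM, which blocks KAT6A and KAT6B, a pair of enzymes that acetylate histones, or the vehicle DMSO. There were 4 groups of 3 libraries: WM-1119 for 3 days, DMSO for 3 days, WM-1119 for 6 days and DMSO for 6 days. Every group carried the Myc transgene and the luciferase lentivirus, no normal B cells or untreated cells were measured, and the cells grew without T cells or other partner cells.

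CD80 and CD86 on an antigen-presenting cell bind CD28 and CTLA-4 on T cells, so that a T cell receives a second signal beside its antigen receptor. CD40 on B cells receives CD40 ligand from helper T cells, signals through TRAF proteins to NF-κB and raises CD80 and CD86. SLAM receptors mostly bind their own kind on a neighbouring cell and signal through small SAP-family adaptors, and CD48 instead binds CD2 and CD244.

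At 3 days the libraries held 18266488 to 28136250 gene counts with WM-1119 and 17863138 to 21638773 with DMSO. The 6-day libraries held 14691369 to 17509662 with WM-1119 and 22749501 to 41607926 with DMSO. Depth thus differed with treatment at 6 days, without overlap, and fits at equal depth were run beside the main fit. The B cell genes fit the label: 9 of 10 B cell markers exceeded 1 CPM (counts scaled to a library total of 1000000), with sums of 3343 to 3395 CPM at 3 days and 3207 to 3348 CPM at 6 days with WM-1119, against 3193 to 3322 CPM and 3084 to 3275 CPM with DMSO. The exception was Ms4a1, which encodes CD20, with 1 read in all libraries together. Of 10 T and NK cell markers, 6 had no read in any library. The summed CPM of 10 fibroblast markers was 1.84 to 5.27 with WM-1119 and 1.87 to 2.88 with DMSO at 3 days, and 0.816 to 38.3 with WM-1119 and 1.42 to 16.9 with DMSO at 6 days. In 5 libraries (WM-1119 3 days replicate 2, and replicates 1 and 2 of both 6-day groups) the collagen gene Col1a1 exceeded 1 CPM. Calls that were lost without these 5 libraries, which leaves 1 WM-1119 and 1 DMSO library at 6 days, are named as such. Levels are per culture, so fewer cells of a type and less RNA per cell cannot be told apart.

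WM-1119 moved these genes in both directions. Cd86 was the most raised and Slamf7 the most lowered at both times, Cd84 and Cd48 were higher at both times, Slamf6 was higher at 6 days, and no change of Ly9 passed the test. At 3 days 4 of the 6 tested members passed an adjusted p of 0.05, 3 higher and 1 lower, where 24.4% of all 11997 tested genes passed, 11.8% higher and 12.7% lower. At 6 days 5 of the 6 passed, 4 higher and 1 lower, against 30.8% of all tested genes, 15.7% higher and 15.1% lower. Their median log2 fold change was 0.16 at 3 days and 0.34 at 6 days, and that of all tested genes was 0.00157 and -0.00372. Adjusted p-values here are from edgeR's quasi-likelihood test with Benjamini-Hochberg adjustment over all tested genes, two-sided, and each log2 fold change is given with its standard error.

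**Figure D1:**
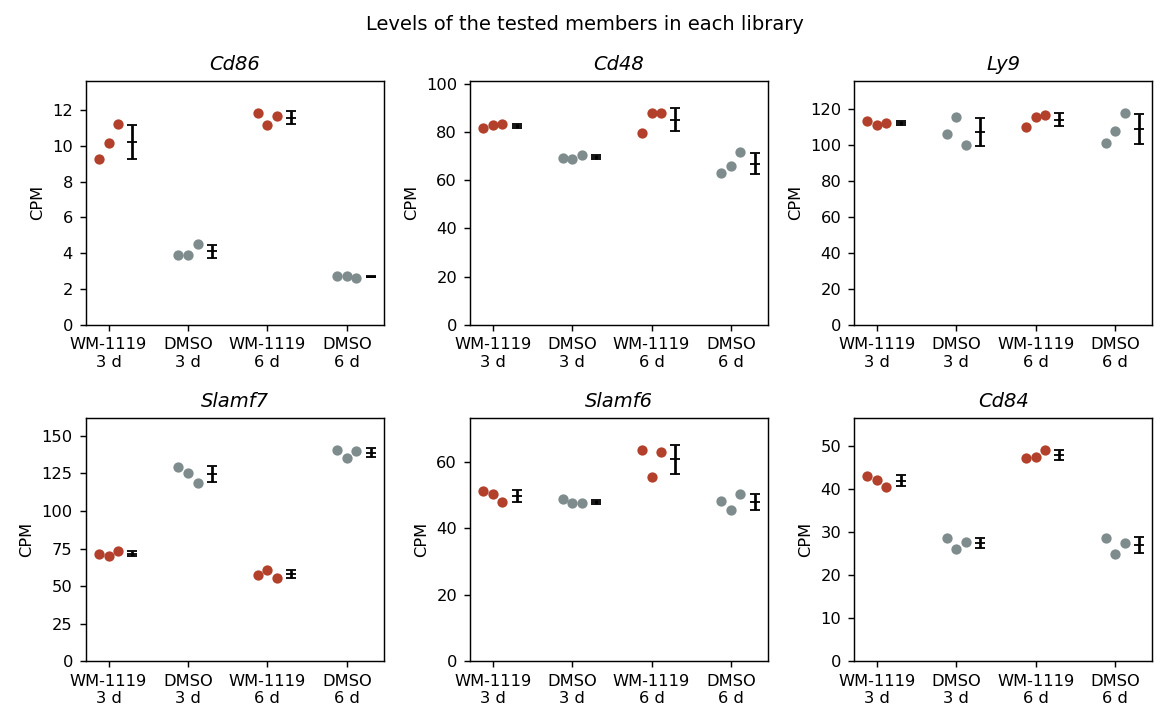
Level of each tested gene in each library, in CPM on axes that start at 0; points are libraries (3 per group), and the bar beside them is the mean with its SD. Cd86 sits between 9.30 and 11.9 CPM in the WM-1119 libraries and between 2.64 and 4.54 CPM in the DMSO libraries, and Slamf7 is lower in every WM-1119 library.

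**Figure D2:**
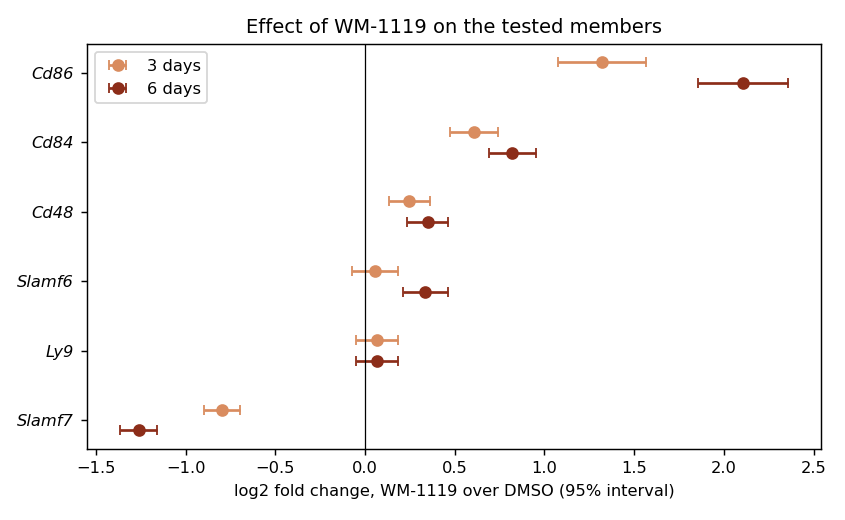
Log2 fold change of WM-1119 over DMSO for each tested gene at 3 days and 6 days, with 95% intervals. Cd86 lies at 1.32 and 2.11, Slamf7 at -0.80 and -1.26, and the intervals of Ly9 include 0 at both times.

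Among the costimulatory genes, Cd86 was the only member with enough reads to be tested. Cd86 lies on chromosome 16 (chr16:36568956-36666158, mm10). At 3 days its level was 9.30, 10.2 and 11.2 CPM in the WM-1119 libraries, against 3.90, 3.91 and 4.54 CPM in the DMSO libraries. In the 6-day cultures Cd86 was at 11.9, 11.2 and 11.7 CPM with WM-1119, against 2.71, 2.70 and 2.64 CPM with DMSO. All WM-1119 libraries lay above all DMSO libraries at both times. The means were 10.2 ± 0.965 CPM with WM-1119 and 4.12 ± 0.367 CPM with DMSO at 3 days, and 11.6 ± 0.347 CPM with WM-1119 and 2.68 ± 0.0379 CPM with DMSO at 6 days (SD, n = 3 each). By the edgeR fit Cd86 rose 2.49-fold at 3 days (log2 fold change 1.32 ± 0.12, adjusted p = 2.62e-08) and 4.30-fold at 6 days (2.11 ± 0.12, adjusted p = 1.26e-11). Without the 5 libraries with Col1a1 above 1 CPM the log2 fold change of Cd86 was 1.32 at 3 days and 2.14 at 6 days.

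The other costimulatory members were at or near the limit of detection. Cd80 (chr16:38457430-38495958), which encodes the second ligand of CD28 and CTLA-4, had 5 reads over all 12 libraries. Cd83 (chr13:43785112-43803133), whose product protects CD86 and MHC class II from ubiquitin-driven loss, had 0 of 263718543 reads, which allows up to 0.0114 CPM. Cd40 (chr2:165055614-165071654) had 56 reads, 1 to 10 in a library, and was given per group. Scaled like CPM over a group's pooled reads, Cd40 had 0.291 with WM-1119 (95% exact Poisson interval 0.175 to 0.455) and 0.149 with DMSO (0.0683 to 0.284) at 3 days, and 0.164 with WM-1119 (0.0707 to 0.323) and 0.224 with DMSO (0.137 to 0.345) at 6 days. By library, Cd40 was at 0.216 to 0.349 CPM with WM-1119 and 0.113 to 0.186 CPM with DMSO at 3 days. These ranges are not a separation in reads, because the libraries at their near ends, replicate 1 of each group, both had 4 reads. At 6 days Cd40 was at 0.0599 to 0.339 CPM with WM-1119 and 0.177 to 0.284 CPM with DMSO, with overlap. No difference of Cd40 was tested, because it fell below the filter on low counts. These intervals and limits cover counting error only. Cd40 was thus read in every library, at levels far under those of Cd86.

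Markers of myeloid and dendritic cells, which also carry CD86, were measured beside it. Their sum over 10 genes was 109 to 115 CPM with WM-1119 and 118 to 127 CPM with DMSO at 3 days, and 125 to 132 CPM with WM-1119 and 120 to 123 CPM with DMSO at 6 days. Over all 12 libraries the macrophage genes Lyz2, Adgre1 and Cd14 had 12, 3 and 8 reads. Of the 5 markers tested, 2 rose and 2 fell at 3 days, and 1 rose and 1 fell at 6 days. Csf1r, the receptor of the macrophage growth factor CSF1, averaged 4.66 CPM with WM-1119 and 1.04 CPM with DMSO at 3 days, and 4.14 CPM with WM-1119 and 0.835 CPM with DMSO at 6 days (log2 fold changes 2.14 and 2.25, edgeR adjusted p = 1.11e-07 and 3.09e-08). Flt3, a receptor tyrosine kinase of progenitors and dendritic cells, fell at both times (log2 fold changes -1.07 and -1.55). Siglech, a marker of plasmacytoid dendritic cells, rose at 3 days (1.49, edgeR adjusted p = 0.00594), and its value at 6 days was 0.96 (adjusted p = 0.0554). Itgam, which encodes CD11b and makes up most of the sum, had a log2 fold change of -0.14 at 3 days (edgeR adjusted p = 0.028), a call lost with upper-quartile scaling (0.0583), with no filter (0.0687), with only the groups compared (0.0537), without the 5 libraries with Col1a1 above 1 CPM (0.176), and without WM-1119 replicate 2 (0.129), WM-1119 replicate 3 (0.0593) or DMSO replicate 2 (0.111). The part of such cells or of these genes in the Cd86 value was not tested.

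The 6 SLAM members lie together on chromosome 1. In their order along mm10 they are Ly9 (chr1:171588613-171607410), Slamf7 (chr1:171632403-171653037), Cd48 (chr1:171681245-171705258), Slamf1 (chr1:171767131-171801184), Cd84 (chr1:171839697-171890718) and Slamf6 (chr1:171917458-171948958). RefSeq promoter windows, from 250 bases before to 50 after a transcript start in GRCm38.p6, matched 6 of the 10 members. The windows of the SLAM genes with the smallest p at 6 days, Slamf7, Cd84 and Cd48, are shown because these neighbours moved in opposite directions.
Slamf7: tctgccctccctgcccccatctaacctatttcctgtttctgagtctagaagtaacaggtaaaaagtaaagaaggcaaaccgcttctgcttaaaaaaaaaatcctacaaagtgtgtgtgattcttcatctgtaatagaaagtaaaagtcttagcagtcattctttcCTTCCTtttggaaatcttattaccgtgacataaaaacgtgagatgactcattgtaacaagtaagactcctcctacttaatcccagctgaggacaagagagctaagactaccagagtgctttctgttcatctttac
Cd84: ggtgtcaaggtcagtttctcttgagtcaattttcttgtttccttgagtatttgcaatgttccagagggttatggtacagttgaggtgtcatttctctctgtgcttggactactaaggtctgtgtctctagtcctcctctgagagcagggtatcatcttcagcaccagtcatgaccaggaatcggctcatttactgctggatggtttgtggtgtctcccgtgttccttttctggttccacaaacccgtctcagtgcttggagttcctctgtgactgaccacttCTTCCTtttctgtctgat
Cd48: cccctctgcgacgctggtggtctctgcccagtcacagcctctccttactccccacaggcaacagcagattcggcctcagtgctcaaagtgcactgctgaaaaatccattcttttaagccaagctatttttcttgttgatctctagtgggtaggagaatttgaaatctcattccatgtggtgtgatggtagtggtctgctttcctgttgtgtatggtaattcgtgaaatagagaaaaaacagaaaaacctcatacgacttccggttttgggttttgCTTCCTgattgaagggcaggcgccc
Each is written from 5′ to 3′ on the strand of its gene: Slamf7 at chr1:171648950-171649249 on the minus strand, Cd84 at chr1:171839447-171839746 and Cd48 at chr1:171681742-171682041 on the plus strand. The Slamf7 and Cd48 starts used by the table lie inside the gene spans given above. Capitals mark only the exact string AGGAAG, a form of the ETS-family motif, read on either strand. Stretches of GGAA with other bases around it were not marked, and the windows hold some. The lowered Slamf7 and the raised Cd84 and Cd48 hold 1 such match each, at bases 166 to 171, 283 to 288 and 276 to 281 of the windows, and 35.4% of 32851 promoter windows hold it. None of these 3 windows holds the NF-κB motif (GGG, any 2 bases, TT, any 1 base, CC; 4.79% of all windows), the interferon element (GAAA, any 2 bases, GAAA; 3.44%), the ETS-IRF element (GGAA, any 2 bases, GAAA; 2.72%), the EBF1 motif CCCNNGGG (13.7%), the E-box CACGTG (7.15%) or the octamer ATGCAAAT (1.74%), on either strand. The windows of Slamf6 and Cd80 hold none of the 7 motifs, and that of Slamf1 holds 2 AGGAAG matches and 1 EBF1 motif. The GC content of the windows was 39% for Slamf7, 46.7% for Cd84 and 47.3% for Cd48.

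Slamf7 encodes a receptor found on NK cells, activated B cells and plasma cells, and was the lowered member. At 3 days it had 71.1, 70.1 and 73.6 CPM in the WM-1119 libraries, against 129, 125 and 119 CPM in the DMSO libraries. The 6-day levels of Slamf7 were 57.7, 60.5 and 55.3 CPM with WM-1119, against 141, 135 and 140 CPM with DMSO. The groups were far apart at both times, with all WM-1119 libraries below all DMSO libraries. By edgeR Slamf7 fell 1.74-fold at 3 days (log2 fold change -0.80 ± 0.05, adjusted p = 8.14e-11) and 2.40-fold at 6 days (-1.26 ± 0.05, adjusted p = 5.11e-14). At 6 days it had the 6th smallest p of all tested genes, and at 3 days the 25th.

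Markers of NK and plasma cells, which also carry SLAMF7, were read beside it. Klrb1c, an NK cell receptor gene and the only tested gene of 10 T and NK cell markers, fell with Slamf7. It averaged 1.38 CPM with WM-1119 and 4.75 CPM with DMSO at 3 days, and 2.13 CPM with WM-1119 and 3.77 CPM with DMSO at 6 days (log2 fold changes -1.79 and -0.83, edgeR adjusted p = 3.11e-06 and 0.00559). The summed CPM of the 10 markers was 1.47 to 1.84 with WM-1119 and 4.60 to 5.94 with DMSO at 3 days, and 1.77 to 3.29 with WM-1119 and 3.68 to 4.71 with DMSO at 6 days. The NK receptor genes Ncr1 and Klrk1 had no read in any library. Of 7 plasma cell markers 4 were tested. At 3 days 1 rose and 2 fell, and at 6 days 2 rose and 2 fell. The plasma cell genes Jchain, Prdm1 and Tnfrsf17 were too low to test, with 16, 75 and 6 reads in all libraries together. Irf4, the transcription factor of activated B cells and plasma cells, averaged 251 CPM with WM-1119 and 347 CPM with DMSO at 3 days, and 213 CPM with WM-1119 and 347 CPM with DMSO at 6 days (log2 fold changes -0.47 and -0.71, edgeR adjusted p = 2.24e-05 and 8.87e-08). Sdc1, which encodes the plasma cell antigen CD138, also fell (-0.32 and -0.36), whereas Mzb1, a chaperone of immunoglobulin assembly, rose (0.47 and 0.65). Xbp1, a factor of the secretory programme, had a log2 fold change of 0.15 at 6 days (edgeR adjusted p = 0.0389). That call was lost with DESeq2 (0.0572), and in edgeR with no filter (0.0979) and with only the groups compared (0.0531). It was also lost without any single 6-day library except DMSO replicate 3 (0.088 to 0.14). At equal depth the Xbp1 value was 0.097 (edgeR adjusted p = 0.222), and without the 5 libraries with Col1a1 above 1 CPM it was 0.083 (0.687). The summed CPM of the 7 markers was 1203 to 1294 with WM-1119 and 1112 to 1162 with DMSO at 3 days, and 1262 to 1410 with WM-1119 and 1117 to 1146 with DMSO at 6 days. Mzb1 made up most of that sum. It averaged 845 CPM with WM-1119 and 612 CPM with DMSO at 3 days, and 967 CPM with WM-1119 and 616 CPM with DMSO at 6 days. The part of these genes in the Slamf7 value was not tested.

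Cd84, whose product binds CD84 on the neighbouring cell, was higher at both times. At 3 days it had 43.0, 42.1 and 40.5 CPM with WM-1119, against 28.5, 26.2 and 27.8 CPM with DMSO. The 6-day levels of Cd84 were 47.1, 47.5 and 49.1 CPM with WM-1119, against 28.6, 25.0 and 27.5 CPM with DMSO. No WM-1119 library overlapped a DMSO library, and by edgeR Cd84 rose 1.52-fold at 3 days (log2 fold change 0.61 ± 0.06, adjusted p = 2.86e-07) and 1.77-fold at 6 days (0.82 ± 0.06, adjusted p = 1.35e-09).

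Cd48, the lipid-anchored ligand of CD2 and CD244, rose by less. At 3 days it had 81.6, 82.8 and 83.2 CPM with WM-1119, against 69.4, 68.9 and 70.5 CPM with DMSO. By 6 days Cd48 was at 79.6, 88.0 and 88.0 CPM with WM-1119, against 63.1, 66.0 and 71.6 CPM with DMSO. The groups did not overlap at either time, and the edgeR log2 fold changes were 0.25 ± 0.05 (1.19-fold, adjusted p = 0.00198) and 0.35 ± 0.05 (1.28-fold, adjusted p = 3.57e-05).

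Slamf6, a self-binding receptor that is also known as Ly108 in mice, passed the test at 6 days and not at 3 days. At 3 days it had 51.4, 50.2 and 47.8 CPM with WM-1119, against 48.7, 47.5 and 47.6 CPM with DMSO, and the groups overlapped (edgeR log2 fold change 0.06, 95% interval -0.07 to 0.18, adjusted p = 0.557). At 6 days it had 63.8, 55.6 and 62.9 CPM with WM-1119, against 48.1, 45.6 and 50.5 CPM with DMSO. The 6-day groups did not overlap, and Slamf6 was 1.26-fold higher (log2 fold change 0.34 ± 0.06, edgeR adjusted p = 0.000166). Without the 5 libraries with Col1a1 above 1 CPM its value was 0.32 and the call was lost (edgeR adjusted p = 0.0515). The difference between the 6-day and 3-day effects of Slamf6, 0.28 ± 0.09, did not pass the test (edgeR adjusted p = 0.222).

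Ly9, which encodes the self-binding receptor CD229, had 113, 111 and 112 CPM with WM-1119, against 106, 115 and 99.9 CPM with DMSO at 3 days. At 6 days it had 110, 116 and 117 CPM with WM-1119, against 101, 108 and 118 CPM with DMSO. The groups overlapped at both times, and the log2 fold change was 0.07 at each, with a 95% interval of -0.05 to 0.19 at both (edgeR adjusted p = 0.433 and 0.404). A change of Ly9 of more than 0.19 on the log2 scale lies outside that interval. Slamf1, which encodes the founding member of the family, had 18 reads in all libraries together and was not tested. It had 4 reads in the WM-1119 group and 1 in the DMSO group at 3 days, and 1 with WM-1119 and 12 with DMSO at 6 days.

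The members can also be counted by whether their groups overlap. At 3 days 4 of the 6 tested members did not overlap (39.9% of all tested genes), and at 6 days 5 of the 6 did not (41.3%).

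Per length of transcript the order of the SLAM genes differed between WM-1119 and DMSO cultures. In RPKM (CPM per kilobase of the deposited gene length) Cd48 was highest in every group, then Ly9. Next came Slamf6 and then Slamf7 in the WM-1119 groups, and Slamf7 and then Slamf6 in the DMSO groups. Slamf7 averaged 18.0 RPKM with WM-1119 and 31.3 RPKM with DMSO at 3 days, and 14.5 RPKM with WM-1119 and 34.9 RPKM with DMSO at 6 days. Slamf6 averaged 20.4 RPKM with WM-1119 and 19.6 RPKM with DMSO at 3 days, and 24.9 RPKM with WM-1119 and 19.7 RPKM with DMSO at 6 days. Cd84 followed in all groups, with 6.70 RPKM with WM-1119 and 4.39 RPKM with DMSO at 3 days, and 7.66 RPKM with WM-1119 and 4.32 RPKM with DMSO at 6 days. Then came Cd86, with 4.03 RPKM with WM-1119 and 1.62 RPKM with DMSO at 3 days, and 4.56 RPKM with WM-1119 and 1.06 RPKM with DMSO at 6 days. The ranges over libraries of neighbours in this order did not overlap for these 6 genes in any group, and the 4 untested genes lay below them.

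The summed RPKM of the 6 SLAM genes was 163 ± 0.313 with WM-1119 and 160 ± 3.29 with DMSO at 3 days, and 168 ± 4.99 with WM-1119 and 162 ± 8.03 with DMSO at 6 days (SD, n = 3 each), and the groups overlapped at 6 days and not at 3 days. Its make-up differed. Slamf7 was 11.0% ± 0.275 of the sum with WM-1119 and 19.5% ± 0.528 with DMSO at 3 days, and 8.65% ± 0.495 with WM-1119 and 21.6% ± 1.04 with DMSO at 6 days. Cd48 was 44.3% ± 0.517 of the sum with WM-1119 and 38.1% ± 1.24 with DMSO at 3 days, and 44.3% ± 1.30 with WM-1119 and 36.1% ± 0.707 with DMSO at 6 days. Cd84 was 4.10% with WM-1119 and 2.75% with DMSO at 3 days, and 4.55% with WM-1119 and 2.67% with DMSO at 6 days. The share of Ly9 was 28.1% with WM-1119 and 27.3% with DMSO at 3 days, and 27.7% with WM-1119 and 27.4% with DMSO at 6 days. Shares of a sum are tied to each other, so a lower share of Slamf7 raises the others.

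**Figure D3:**
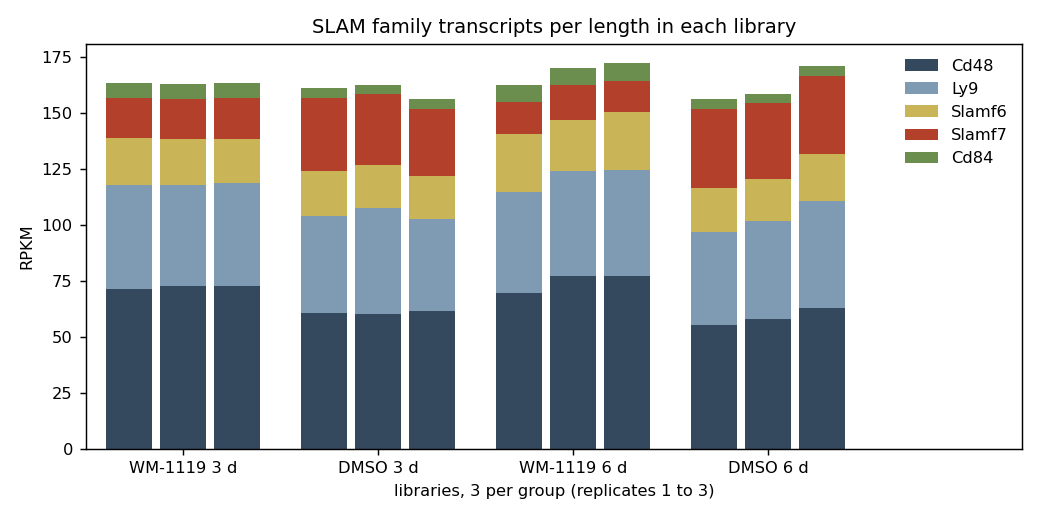
Stacked RPKM of the SLAM genes in each library, with Slamf1 left out because it is too low to see; each bar is a library, 3 per group. The bars differ little in height, and the Slamf7 segment is 8.65% of the sum with WM-1119 and 21.6% with DMSO at 6 days.

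Ratios of raw counts within a library do not depend on library scaling. The ratio of Slamf7 to Cd48 counts was 0.846 to 0.885 in WM-1119 libraries and 1.68 to 1.86 in DMSO libraries at 3 days, and 0.628 to 0.725 with WM-1119 and 1.96 to 2.23 with DMSO at 6 days. Slamf7 reads were thus fewer than Cd48 reads in each WM-1119 library and more numerous in each DMSO library. The ratio of Slamf7 to Ly9 counts was 0.627 to 0.655 with WM-1119 and 1.09 to 1.21 with DMSO at 3 days, and 0.475 to 0.525 with WM-1119 and 1.19 to 1.39 with DMSO at 6 days. The ratio of Cd84 to Ly9 counts was 0.360 to 0.379 with WM-1119 and 0.227 to 0.278 with DMSO at 3 days, and 0.410 to 0.429 with WM-1119 and 0.232 to 0.282 with DMSO at 6 days. In each of these 3 ratios the groups did not overlap at either time. The two-sided exact permutation p was then 0.1, the smallest that 3 against 3 libraries can give. It follows from the lack of overlap and adds nothing to it. The ratios of Slamf7 to Cd84 and of Cd48 to Ly9 did not overlap at either time. The ratio of Slamf6 to Ly9 overlapped at 3 days (0.426 to 0.453 with WM-1119 and 0.412 to 0.476 with DMSO, exact permutation p = 0.8) and not at 6 days.

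Genes that lie around the SLAM members were read beside them. Of 19 other genes within 250 kb of a SLAM member 16 were tested, with 2 higher and 2 lower at each time, and a median log2 fold change of -0.01 at 3 days and -0.08 at 6 days. At 6 days the lower ones were Vangl2, a planar cell polarity gene (-0.60), and Pea15a (-0.54), and the higher ones Arhgap30 (0.14) and Ncstn (0.13). The last 3 were named after their values were seen, and the 6-day calls of Ncstn and Arhgap30 were weak. The Ncstn call was lost at equal depth (adjusted p = 0.202), with no filter (0.104), DESeq2 (0.0542) and only the groups compared (0.0524), without WM-1119 3 days replicate 3 (0.0521), and without any single 6-day library (0.0527 to 0.152). The Arhgap30 call was lost at equal depth (0.0698) and without replicate 1 (0.0834) or 2 (0.131) of WM-1119 at 6 days or replicate 3 of DMSO at 6 days (0.0924). At 3 days the Vangl2 call was lost with no filter (adjusted p = 0.065), DESeq2 (0.0774) and equal depth (0.395). Fits without a single library lost the 3-day calls of Vangl2 (5 of 12), Ncstn (3) and Pea15a (3), with edgeR adjusted p up to 0.136. Without the 5 libraries with Col1a1 above 1 CPM the 3-day calls of Vangl2 (0.124) and Ncstn (0.0687) were lost. Cd244a, which encodes the other CD48 receptor and lies beside Ly9, averaged 11.8 CPM with WM-1119 and 10.4 CPM with DMSO at 3 days, and 8.22 CPM with WM-1119 and 7.77 CPM with DMSO at 6 days (log2 fold changes 0.18 and 0.07, not called). Around Cd86 5 of 11 neighbours were tested, and at 6 days none rose and 2 fell. They were Eaf2, a transcription elongation factor (-1.06, edgeR adjusted p = 0.00167), and Iqcb1, a ciliary gene (-0.48, edgeR adjusted p = 0.000116). Iqcb1 lies inside the span of Eaf2, so reads of the 2 genes may be mixed and their falls may not be separate. Without the 5 libraries with Col1a1 above 1 CPM the 6-day calls of all of these 6 genes were lost (edgeR adjusted p = 0.0514 to 0.529), and so was that of Mcur1 (0.0694). Near the genes that were not tested, 2 of 8 tested genes within 250 kb of Cd80 fell at 6 days and none rose. They were B4galt4 (-0.83), toward the edge of that window, and Timmdc1 (-0.29, edgeR adjusted p = 0.0091), which lies closer to Cd80. Timmdc1 was named after its value was seen and was not read in the other fits. Mcur1, within 250 kb of Cd83 (0.34), and Ctsa, within 250 kb of Cd40 (0.28), rose.

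**Figure D4:**
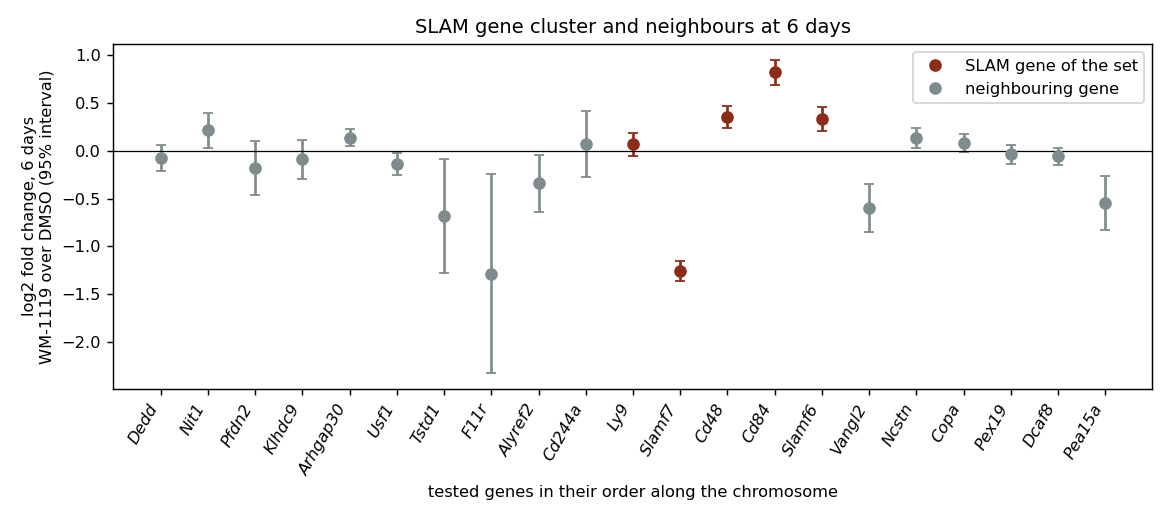
Log2 fold change of WM-1119 over DMSO at 6 days with 95% intervals, for the tested SLAM members and the tested genes within 250 kb of them, in chromosome order (order only, not to scale). Slamf7 at -1.26 lies between Ly9 at 0.07 and Cd48 at 0.35, and Cd84 at 0.82 is the highest.

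Time was compared as the difference between the effects at 6 and 3 days. It passed the test for 2 of the 6 tested members, Cd86 higher and Slamf7 lower, where 0.725% of all tested genes passed, 0.4% higher and 0.325% lower. The Cd86 difference was 0.79 ± 0.17 (95% interval 0.43 to 1.14, edgeR adjusted p = 0.0279) and that of Slamf7 -0.46 ± 0.07 (-0.61 to -0.32, edgeR adjusted p = 0.00129). The Cd86 call was lost in 12 of 21 other fits, among them limma voom (adjusted p = 0.0589), equal depth (0.262), the 5 libraries with Col1a1 above 1 CPM left out (0.791) and 9 of the 12 fits without a single library (0.0546 to 0.0993), while its sign held in all of them. The call was kept without WM-1119 3 days replicate 3, DMSO 3 days replicate 2 or DMSO 6 days replicate 3 (0.0283 to 0.0494). The Slamf7 call was lost only without the 5 libraries with Col1a1 above 1 CPM (-0.56, edgeR adjusted p = 0.0946).

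Within WM-1119 cultures, 6 days against 3 days, 2 of the 6 tested members passed against 5.62% of all tested genes (2.33% higher and 3.29% lower), and 3 of the 6 did not overlap (29.6%). Slamf6 was higher (0.29 ± 0.06, edgeR adjusted p = 0.00743) and Slamf7 lower (-0.31 ± 0.05, edgeR adjusted p = 0.000929). The Slamf6 call was lost without WM-1119 6 days replicate 1 (0.24, adjusted p = 0.0613) and without the 5 libraries with Col1a1 above 1 CPM (0.34, adjusted p = 0.0529). Within DMSO cultures 1 of the 6 passed against 0.809% (0.358% higher and 0.45% lower), and 2 of the 6 did not overlap (16.7%). Cd86 was lower at 6 days (-0.61 ± 0.14, edgeR adjusted p = 0.0311). That Cd86 call was lost without any single DMSO library (adjusted p = 0.0624 to 0.11), with limma voom (0.0734), at equal depth (0.167), with only the groups compared (0.149) and without the 5 libraries with Col1a1 above 1 CPM (0.124). The Cd86 change of WM-1119 cultures over time, 0.18 ± 0.11, did not pass (edgeR adjusted p = 0.334). Over all tested genes, upper-quartile scaling gave 200 higher and 514 lower between the times in WM-1119 cultures and 43 and 95 in DMSO cultures, where TMM scaling gave 279 and 395, and 43 and 54.

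Other genes of the same pathways were counted in lists, with the median log2 fold change of each beside that of all tested genes given above. Of 17 other costimulatory and inhibitory ligands 7 were tested, and 4 rose and 1 fell at both times (medians 0.17 and 0.25). Vsir, which encodes the inhibitory ligand VISTA, averaged 7.83 CPM with WM-1119 and 4.29 CPM with DMSO at 3 days, and 8.70 CPM with WM-1119 and 3.08 CPM with DMSO at 6 days (log2 fold changes 0.87 and 1.53, edgeR adjusted p = 0.000131 and 6.03e-08). The other 3 that rose were, at 6 days, Tnfrsf14, the herpesvirus entry mediator (0.55), Cd274, which encodes PD-L1 (0.45, named after its value was seen), and Cd47, the ligand of the phagocyte receptor SIRPα (0.25). Btla, an inhibitory receptor that binds the product of Tnfrsf14, fell (-0.73). Without WM-1119 replicate 2 the 3-day calls of Tnfrsf14, Cd274, Cd47 and Btla were lost (edgeR adjusted p = 0.0532 to 0.132), and each was lost without 2 or 3 other single 3-day libraries (0.0595 to 0.162). These 3-day calls were lost too without the 5 libraries with Col1a1 above 1 CPM (0.0627 to 0.131).

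Of 13 receptors of the partner cell 6 were tested, and 1 rose and 1 fell at both times (medians 0.21 and 0.05). Cd2, which encodes the CD48 receptor and is carried by these cells too, averaged 76.9 CPM with WM-1119 and 52.6 CPM with DMSO at 3 days, and 84.0 CPM with WM-1119 and 56.8 CPM with DMSO at 6 days (log2 fold changes 0.55 and 0.57, edgeR adjusted p = 3.5e-07 and 9.3e-08). Cd28, the receptor of CD80 and CD86, fell to 0.525 CPM with WM-1119, against 1.19 CPM with DMSO at 3 days, and to 0.436 CPM with WM-1119, against 1.08 CPM with DMSO at 6 days (-1.28 and -1.36, edgeR adjusted p = 0.0296 and 0.0248). Its call was lost at 3 days without WM-1119 replicate 2 (0.204) or DMSO replicate 1 (0.194), and at 6 days without WM-1119 replicate 1 (0.106) or 2 (0.0775) or DMSO replicate 1 (0.088) or 3 (0.0651). It was also lost at equal depth at 3 days (0.0781), with limma voom at 6 days (0.0566), and without the 5 libraries with Col1a1 above 1 CPM at 3 days (-0.84, adjusted p = 0.145). Ctla4, Icos, Pdcd1 and the CD40 ligand gene Cd40lg had 0 reads in all libraries.

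Of 21 genes of CD40 signalling 20 were tested, and 7 rose and 1 fell at both times (medians 0.09 and 0.11). At 6 days the NF-κB subunit genes Nfkb1 (0.32) and Nfkb2 (0.34), the NF-κB inhibitor Nfkbia (0.29) and the ubiquitin ligase Birc3 (0.33) rose. The 3-day call of Birc3 was lost with DESeq2 (adjusted p = 0.0535), with limma voom (0.0533) and at equal depth (edgeR, 0.0646). That call was also lost in 6 of the 12 fits without a single library (edgeR adjusted p up to 0.193). The gene that fell was Traf6, an adaptor of CD40 (-0.18 and -0.15, named after its value was seen). Its 6-day call was lost with limma voom (adjusted p = 0.0568) and DESeq2 (0.0609). In edgeR it was lost with upper-quartile scaling (adjusted p = 0.0723), with only the groups compared (0.0553) and at equal depth (0.0827). The Traf6 call was also lost at 3 days without the 5 libraries with Col1a1 above 1 CPM (0.074), and at both times without several single libraries (up to 0.201). Of 13 genes of SLAM signalling 9 were tested; at 3 days 2 rose and 3 fell, and at 6 days 3 rose and 2 fell (medians -0.03 and 0.05). Fyn, the kinase recruited by SAP, averaged 25.8 CPM with WM-1119 and 44.1 CPM with DMSO at 3 days, and 21.0 CPM with WM-1119 and 43.3 CPM with DMSO at 6 days (-0.77 and -1.05, edgeR adjusted p = 5.23e-09 and 3.5e-11). Slamf9, another SLAM receptor gene, fell (-0.59 and -0.85). Inpp5d, which encodes the inhibitory phosphatase SHIP1, rose (0.38 and 0.53), as did Ptpn6, which encodes SHP-1 (0.18 and 0.21). The third that rose at 6 days was Lyn, a Src-family kinase (0.27), and the third that fell at 3 days was Ptpn11, which encodes SHP-2 (-0.15), both named after their values were seen. The Lyn call was lost without DMSO 6 days replicate 2 (edgeR adjusted p = 0.051), and the Ptpn11 call without WM-1119 3 days replicate 2 (0.0528) and without the 5 libraries with Col1a1 above 1 CPM (0.0694). With a replicate block Ptpn11 was also called at 6 days (-0.11, edgeR adjusted p = 0.0422) and Lyn at 3 days (0.18, adjusted p = 0.0332). The block was not the only such setting. Ptpn11 at 6 days was called with 1 CPM in 3 libraries (edgeR adjusted p = 0.0486), at equal depth (0.0357) and without DMSO 6 days replicate 1 (0.024). Lyn at 3 days was called with upper-quartile scaling (edgeR adjusted p = 0.043) and without DMSO 3 days replicate 3 (0.000651). Genes of this list that are not named were not read with the block, so no list counts are given for it.

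Of the SAP-family adaptors, Sh2d1a and Sh2d1b2 had 0 reads and Sh2d1b1 14 reads in all libraries together.

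Of 9 genes of CD86 and MHC class II turnover 7 were tested, none passed at 3 days and 1 rose at 6 days (medians 0.04 and 0.31). It was Cd74, the invariant chain, with 3.17 CPM in WM-1119 and 3.00 CPM in DMSO cultures at 3 days, and 4.41 CPM with WM-1119 and 2.77 CPM with DMSO at 6 days (0.08 and 0.69, edgeR adjusted p = 0.803 and 0.00473). Marchf1, the ubiquitin ligase of CD86, had log2 fold changes of 0.10 and 0.31 and was not called. Without the 5 libraries with Col1a1 above 1 CPM the 6-day calls of Cd47, Cd274, Btla, Cd28, Nfkb1, Nfkb2, Nfkbia, Traf6, Lyn, Ptpn6 and Cd74 were lost (edgeR adjusted p = 0.0538 to 0.401).

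**Figure D5:**
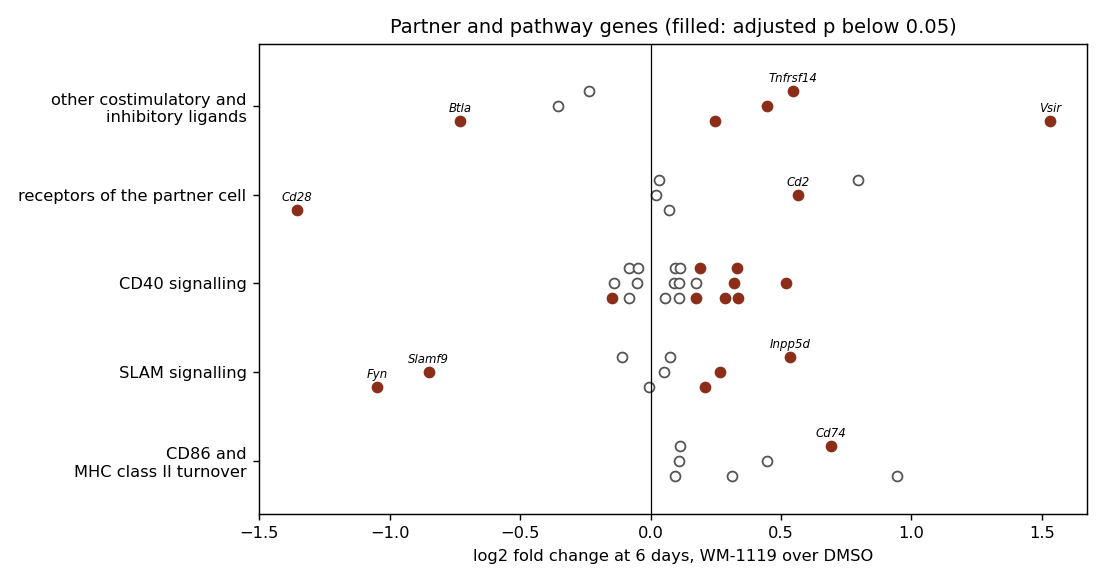
Log2 fold change of WM-1119 over DMSO at 6 days for the tested genes of 5 lists around the members; each circle is a gene, filled where the adjusted p was below 0.05, and vertical offsets within a list only separate the circles. Vsir at 1.53 is the most raised called gene and Cd28 at -1.36 the most lowered.

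The genes with the most similar course over the 12 libraries were found for the 3 members with the smallest p at 6 days, by the root-mean-square distance between log2 CPM values centred on each gene's mean. For Slamf7 they were Cmah (0.093), Rap2a (0.11) and Slc12a2 (0.11). For Cd86 they were Sytl1, Dstyk and Csf2rb2 (0.18 each). For Cd84 they were Trim30a (0.065), Jade2 (0.069) and Zfp385a (0.079). Cmah, which makes N-glycolylneuraminic acid, averaged 45.4 CPM with WM-1119 and 77.9 CPM with DMSO at 3 days, and 35.8 CPM with WM-1119 and 92.7 CPM with DMSO at 6 days. Csf2rb2, a beta chain of the interleukin-3 receptor, averaged 6.78 CPM with WM-1119 and 2.59 CPM with DMSO at 3 days, and 9.01 CPM with WM-1119 and 2.09 CPM with DMSO at 6 days.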

How the data were processed

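RNA was sequenced from 12 cultures of EMRK1184luc cells in 4 groups of 3, with TruSeq stranded libraries, per the labels. The deposited table holds whole-number read counts per gene; per the submitters' processing notes the authors used featureCounts and mm10. For the aligner, the strand setting and shared reads, settings were not given in the sources used here, so reads of overlapping genes may be mixed. The deposited table also gives each gene's length, used for RPKM. The 874 of 27179 entries without an identifier (0.305% to 0.362% of a library) were left out, and 25275 of the other entries matched a RefSeq symbol.

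Counts were scaled by TMM, low genes removed with filterByExpr, and 11997 genes fitted with all 12 libraries in edgeR 4.0.16 (R 4.3.3; quasi-likelihood, robust, 4 group means), with Benjamini-Hochberg adjustment over all genes and a threshold of 0.05. CPM is the count over library total times TMM factor, and 0.5 CPM was added before logs in the likeness measure. The alternatives used limma 3.58.1, DESeq2 1.42.0, other scalings and filters, equal depth, a replicate block and left-out libraries. The script was tested on simulated data. The design text calls the replicates biological but names no culture or day, so the p-values cover only the spread among these samples, which may be technical.

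Members and lists were chosen with earlier results of these data known. Besides members, the genes named were up to 4 called genes per list with the smallest p at 6 days, up to 6 such neighbours, and 3 likeness neighbours for 3 members; others are marked. Erythroid and platelet genes (6 listed, 1 tested, none called) summed to 0.244 to 0.789 CPM.

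Same-numbered replicates deviated together at 6 days (correlations of deviations from group means 0.19 to 0.21 for the 3 pairs). Differently numbered 6-day libraries gave -0.18 to 0.0032. Deviations from a group mean cancel within the group, so positive values for same numbers force lower values for the others. That contrast is no separate evidence. The numbers were taken as a possible pairing of the 6-day cultures from the same-numbered correlations, which rests on the data alone. Between groups of different days, where no pairing was taken, differently numbered libraries gave -0.19 to 0.21, so values of this size also arose without it. The main fit holds no pairing. At 3 days the correlations were -0.02 to 0.05. The block changed no call of a member, and among the other named genes it added calls of Lyn at 3 days and Ptpn11 at 6 days.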

Additional observations from a re-analysis of the deposited data

Results flagged for a closer look

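The difference between the WM-1119 effects at 6 and 3 days passed its test for 2 members. For Cd86 the log2 effect at 6 days minus that at 3 days was 0.79 ± 0.17 (edgeR adjusted p = 0.0279). It kept its sign in 21 other fits and missed the threshold in 12 of them (adjusted p up to 0.791). The WM-1119 level was 10.2 CPM at 3 days and 11.6 CPM at 6 days, and the DMSO level 4.12 CPM at 3 days and 2.68 CPM at 6 days. For Slamf7 the difference was -0.46 ± 0.07 (edgeR adjusted p = 0.00129), and it missed the threshold in 1 of 21 other fits, without the 5 libraries with Col1a1 above 1 CPM (0.0946). The WM-1119 level was 71.6 CPM at 3 days and 57.8 CPM at 6 days, and the DMSO level 124 CPM at 3 days and 139 CPM at 6 days.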

How the results depend on the processing

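The calls of Cd86, Slamf7, Cd84 and Cd48 at both times held in all alternatives, 22 at 3 days and 23 at 6 days. The number of members called was 4 in each alternative at 3 days and 4 or 5 at 6 days. Calls over all tested genes ranged over 2167 to 3249 at 3 days and 2924 to 3788 at 6 days when 1 library was left out.

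Without the 5 libraries with Col1a1 above 1 CPM, calls over all genes were 1516 at 6 days, 5 for the difference between times, 268 within WM-1119 and 537 within DMSO between the times. The members called were then 0 for the difference, 1 within WM-1119 and 0 within DMSO. Members called for the difference were 1 with limma voom and 1 at equal depth. Those within DMSO were 0 with limma voom, 0 at equal depth and 0 with only the groups compared. For all genes that last setting gave 1117 within WM-1119 and 47 within DMSO. Within DMSO all genes gave 173 with no filter, 171 with DESeq2 and 167 with a replicate block. Leaving out 1 library gave 46 to 217 for the difference, 309 to 1100 within WM-1119 and 41 to 158 within DMSO, with 1 to 2, 1 to 2 and 0 to 1 members.

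Values near 0 changed sign. Ly9 at 6 days was -0.018 without the Col1a1 libraries. The Ly9 difference was -0.0042 with RLE, -0.0059 with upper-quartile scaling, -0.019 with no filter, -0.0015 with 1 CPM in 3 libraries, -0.0044 with DESeq2, -0.0042 at equal depth, -0.093 without the Col1a1 libraries, and -0.052 to 0.060 without 1 library. Between times with upper-quartile scaling, Ly9 within WM-1119 was -0.0028 and Slamf6 within DMSO -0.014. Cd48 within DMSO was 0.041 without the Col1a1 libraries. Without 1 library the values within DMSO were -0.067 to 0.027 for Cd84, -0.039 to 0.074 for Ly9 and -0.030 to 0.035 for Slamf6. At 3 days they were -0.010 to 0.044 for Xbp1 and -0.070 to 0.18 for Cd74. The cause was not tested.

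With the replicate block, all genes gave 3157 calls at 3 days, 3904 at 6 days, 100 for the difference and 789 within WM-1119. The block within the 6-day groups alone, chosen after seeing the data, gave 4352. Besides the count within DMSO it changed no count of calls by more than 1.5 times. Depth limits the 4 untested members.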

Other observations

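The B cell identity genes around these receptors moved in both directions. Of 10 B cell markers 9 were tested; at 3 days 2 rose and 3 fell, and at 6 days 3 rose and 4 fell. Pax5 and Ebf1, transcription factors of B cell commitment, had log2 fold changes of -0.47 and -0.37 at 3 days and -0.58 and -0.29 at 6 days. Cd22, an inhibitory coreceptor, fell by 0.31 and 0.56 on the log2 scale, and Cd79b, a signalling chain of the B cell receptor, rose by 0.50 and 0.48. Without the 5 libraries with Col1a1 above 1 CPM the 6-day call of Ebf1 was lost.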
